A study of Phalacrocorax auritus with 15 samples.

Results

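The set described here comprises 86 features of the liver of embryonic double-crested cormorants that were already present in solvent-exposed liver and at least 3 times as abundant after ethinylestradiol (EE2). They were chosen from 16181 features by their counts scaled to the library's total (CPM, the usual rate per 1000000 counts). A member had a mean of at least 20 CPM in solvent replicates 1, 3, 4 and 5, and a mean over the 10 exposed libraries of at least 3 times that. Of the 5609 features that met the solvent threshold, 86, or 1.53%, met the fold threshold too. Solvent replicate 2 took no part in the choice and is given apart throughout. Because these values chose the members, the contrast of exposed with solvent liver is described without a test. Members are numbered from 1, the highest, by their mean CPM in exposed livers.

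EE2 is a synthetic oestrogen. In egg-laying vertebrates the liver is a main target of oestrogen, which acts there through nuclear oestrogen receptors that switch on genes for the proteins and lipids of egg yolk. These products are made in the liver of laying females and carried in the blood to the ovary. Embryonic bird liver can respond to oestrogen before yolk is needed, and egg injection is used to study oestrogenic chemicals in birds. No gene name comes with any ID in the files (0 of 16181 could be named), so no role can be given to any member, and no sequence is shown. Whether the liver's defining markers are present could not be checked for the same reason.

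The cormorant is a fish-eating waterbird. Eggs received 50 µl of dosing solution into the air cell and were then kept at 37.5 °C with the humidity at 60%. The groups, 5 samples each, had dimethyl sulfoxide solvent alone, EE2 at a nominal 3.33 µg per g egg (actual 2.3) or EE2 at a nominal 33.3 µg per g egg (actual 31.9). Left-lobe liver was taken on day 14 of embryonic development per the sample labels, although the series' design text gives another day for this species. Samples are numbered within a group, with no statement on which eggs they came from. A p-value thus reflects the scatter of these samples, which may be technical.

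The libraries held 11602455 to 19929889 counts, the smallest being solvent replicate 2. The column prefix differs between solvent and exposed libraries, and a batch behind it cannot be told apart from exposure. Of the 5609 liver features, 8.83% were at 3 times the solvent mean or more in solvent replicate 2, against at most 0.0713% in each other solvent library. The other solvent libraries are part of that mean, which largely sets their low values by construction. The share was 8.33% in replicate 5 at 3.33 µg/g and 4.96% in replicate 3 at 33.3 µg/g, and 1.14 to 3.24% in the other 8 exposed libraries. Ratios of CPM that rest on the 2 exposed libraries are given with and without them. Solvent replicate 2 is in no ratio unless stated. A bulk liver sample does not tell more cells of a type from more RNA per cell.

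The members together held a several-fold larger share of the liver's counts after exposure. They took 1.28 ± 0.184% of counts in the 4 solvent libraries of the rule (SD, n = 4), 5.08 ± 1.42% with 3.33 µg/g and 5.52 ± 1.07% with 33.3 µg/g (SD, n = 5 each). By library the share was 1.34, 1.502, 1.18 and 1.08% in solvent replicates 1, 3, 4 and 5. It was 5.34, 5.65, 5.70, 6.12 and 2.59% in replicates 1 to 5 at 3.33 µg/g. It was 5.69, 5.17, 4.07, 7.05 and 5.62% in replicates 1 to 5 at 33.3 µg/g. Every exposed library was above every solvent library, and replicate 5 at 3.33 µg/g was the lowest exposed library by a wide margin. Solvent replicate 2 held 1.04%, close to the other solvent libraries, but with a different make-up, as described for single members further on.

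**Figure D1:**
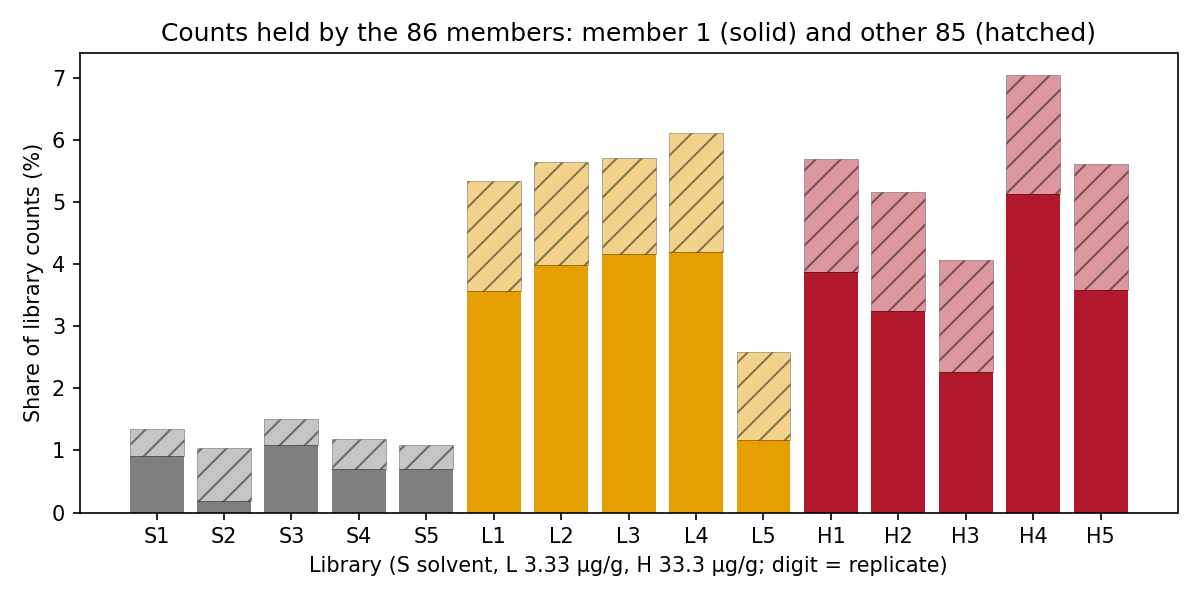
Share of each library's counts (%, y axis) held by member 1 (solid bars) and by the other 85 members together (hatched), for each of the 15 libraries (x axis). Member 1 takes most of each bar except in solvent replicate 2 and in replicate 5 at 3.33 µg/g, where the other 85 take more.

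One feature dominated this share. Member 1, s2f_0001908006, made up 66.3% of the members' summed solvent mean and 66.4% of their summed exposed mean. The other 85 members together held 0.430 ± 0.0436% of solvent counts (SD, n = 4), 1.66 ± 0.191% with 3.33 µg/g and 1.90 ± 0.0939% with 33.3 µg/g (SD, n = 5 each). Their share was steadier across exposed libraries than that of member 1, from 1.43% in replicate 5 at 3.33 µg/g to 2.04% in replicate 5 at 33.3 µg/g.

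Most members were modest features. The median solvent mean was 35.05 CPM, with 66 of 86 members under 50 CPM and 5 at 100 CPM or more. The median exposed mean was 128 CPM; 59 members reached 100 CPM, 22 reached 200 CPM and 4 reached 1000 CPM. The ratio of the exposed to the solvent mean had a median of 3.62 and a highest value of 15.8. It was below 4 for 61 members, at least 5 for 10 and at least 10 for 3, so most of the set lay close to the fold threshold. The members just inside that threshold had ratios of 3.0003 (member 47) and 3.02 (member 76), and the features just outside had 2.98 and 2.99. At the solvent threshold, members 81 and 82 had 20.1 and 20.2 CPM, and the features just outside had 19.77 and 19.87 CPM with ratios of 3.43 and 5.97.

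The size of these ratios depends on the scaling. Ratios of CPM were above 1 for liver features in general: over the 5609 features the median ratio was 1.53. With TMM scaling (trimmed mean of M-values), which sets libraries against each other by the bulk of their features, that median was 0.967. The TMM factors were 0.632 to 0.855 in the 4 solvent libraries and 0.985 to 1.35 in the exposed ones, and solvent replicate 2 had 1.41. On this scale the members' ratios had a median of 2.31 and ran from 1.92 to 10.2, and 11 of 86 members kept a ratio of at least 3. Median-of-ratios scaling gave a median of 2.24, and 11 members again kept a ratio of at least 3. In both cases these were members 3, 6, 7, 10, 14, 16, 17, 22, 31, 36 and 52. The lowest ratio of any member was 1.86 with median-of-ratios scaling.

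Exposed and solvent livers did not overlap in CPM for most members. In CPM, all 10 exposed libraries were above the 4 solvent libraries in 76 of 86 members, against 48.3% of the 5609 liver features. With TMM scaling the groups were apart in 46 members, against 11.1% of liver features. Median-of-ratios scaling left 43 of 86 members apart, and the share of liver features was not counted on that scale. Counting solvent replicate 2 as well, 49 members were apart in CPM, against 12.9%. The rule used this contrast, so these counts only describe the members.

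The most abundant member, s2f_0001908006, was also the most abundant of all features in each of the 10 exposed libraries. It measured 9094, 10798, 6973 and 7008 CPM in solvent replicates 1, 3, 4 and 5. At 3.33 µg/g it measured 35698, 39916, 41555, 41987 and 11650 CPM in replicates 1 to 5. At 33.3 µg/g it measured 38699, 32414, 22600, 51301 and 35778 CPM. In CPM, replicate 5 at 3.33 µg/g was only just above the highest solvent library, and replicate 3 at 33.3 µg/g was the next lowest exposed library. With TMM scaling, replicate 5 at 3.33 µg/g was below solvent replicates 1, 3 and 5. The ratio to solvent was 4.03 at the lower and 4.27 at the higher dose, or 2.63 over both doses with TMM scaling. Solvent replicate 2 had 1834 CPM, below every other library.

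The largest ratio belonged to member 3, s2f_0004545001. It had 124, 101, 108 and 61.7 CPM in solvent replicates 1, 3, 4 and 5. It had 2595, 1691, 920, 1379 and 701 CPM in replicates 1 to 5 at 3.33 µg/g, and 1429, 1548, 1321, 2226 and 1802 CPM at 33.3 µg/g. The lowest exposed library was more than 5 times the highest solvent library. The means were 98.6 ± 26.4 CPM in solvent (SD, n = 4), 1457 ± 744 CPM with 3.33 µg/g and 1665 ± 361 CPM with 33.3 µg/g (SD, n = 5 each). The ratio over both doses was 15.8, or 10.2 with TMM scaling. In solvent replicate 2 it was at 8.45 CPM, lower than in any other library.

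Members 6 and 7 came next by ratio, at 12.9 and 10.7. Member 6 was at 37.6, 73.1, 42.0 and 34.0 CPM in solvent replicates 1, 3, 4 and 5. It ranged from 370 to 656 CPM at 3.33 µg/g and from 518 to 983 CPM at 33.3 µg/g. Member 7 was at 39.5, 51.6, 50.8 and 35.5 CPM in the same solvent libraries. It was at 526, 553, 552, 522 and 250 CPM at 3.33 µg/g and at 473, 411, 383, 576 and 478 CPM at 33.3 µg/g. In CPM, solvent replicate 2 was similar to the other solvent libraries, with 54.9 CPM for member 6 and 50.2 CPM for member 7. The separation of both from exposed livers therefore held in all 5 solvent libraries. Solvent replicate 2 had a TMM factor of 1.41, against 0.632 to 0.855 in the other solvent libraries. On the TMM scale it was below each of them for both members.

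Among the other abundant members, member 4 went from 285 ± 63.1 CPM in solvent (SD, n = 4) to 1136 ± 366 CPM with 3.33 µg/g and 1154 ± 294 CPM with 33.3 µg/g (SD, n = 5 each). In CPM its groups did not overlap, the lowest exposed library having 528 CPM and the highest solvent library 334 CPM. That exposed library, replicate 5 at 3.33 µg/g, had a TMM factor of 1.35, against 0.646 in solvent replicate 3. On the TMM scale it was below solvent replicates 1 and 3 for this member, so the groups overlapped. Member 2 was less clean. Solvent replicate 1 had 867 CPM, whereas replicates 3, 4 and 5 had 411, 388 and 429 CPM. Replicate 5 at 3.33 µg/g had 608.5 CPM, inside the solvent range, and the other exposed libraries had 1204 to 2841 CPM.

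**Figure D2:**
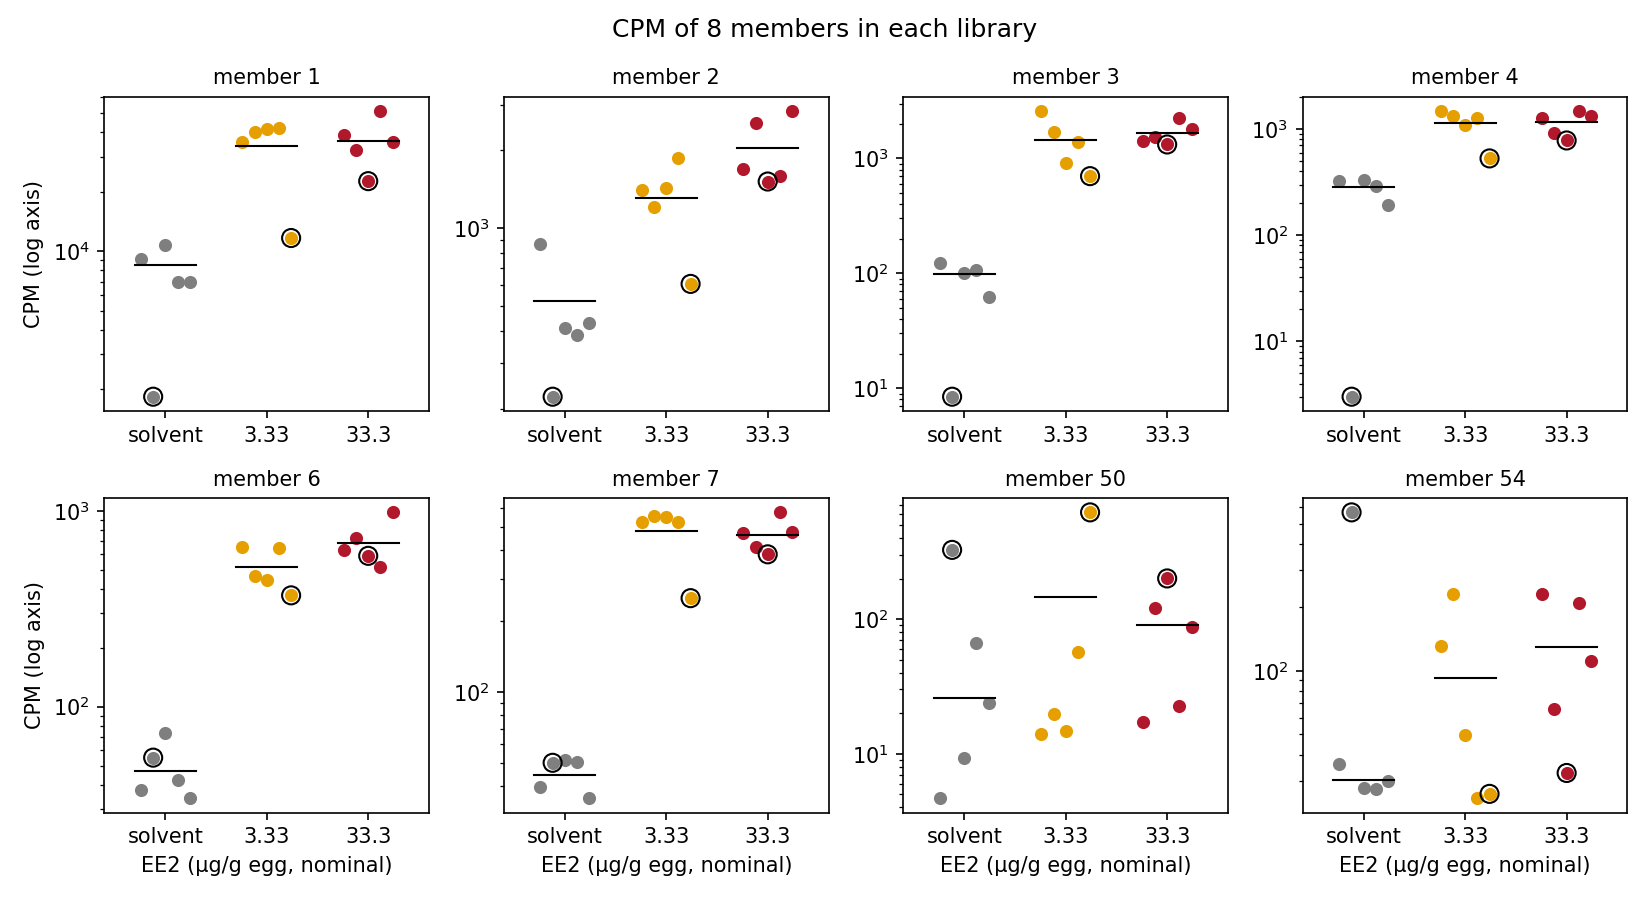
CPM (log y axis) of members 1, 2, 3, 4, 6, 7, 50 and 54 in solvent livers and at 3.33 and 33.3 µg/g (x axis). Each point is a library, bars are group means (solvent replicate 2 left out), and rings mark solvent replicate 2, replicate 5 at 3.33 µg/g and replicate 3 at 33.3 µg/g. Members 3, 6 and 7 are above all solvent libraries in every exposed library, whereas member 50 is high in the ringed libraries and member 54 in solvent replicate 2.

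Consistency across exposed livers varied between members. In 13 members each of the 10 exposed libraries was at least 3 times the solvent mean; these were members 3, 6, 7, 16, 18, 22, 25, 27, 29, 34, 41, 45 and 51. In 25 members this held in 5 or fewer exposed libraries. By library, the number of members at or above 3 times the solvent mean was 50, 50, 51, 72 and 47 in replicates 1 to 5 at 3.33 µg/g. It was 61, 74, 58, 58 and 76 in replicates 1 to 5 at 33.3 µg/g. Solvent replicate 2, which is outside that mean, had 28 members at this level. The other solvent libraries are part of the mean, so their count of 0 is largely set by construction.

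The members differed in how they varied among livers with the same exposure, and the bounds used here to group them are a choice. Over the 10 exposed libraries, Pearson's r of log2(CPM + 1) with member 1 was at least 0.7 for 26 members, member 1 included, and at most -0.7 for 13. The other 47 lay between. Among all 5609 liver features these shares were 11.57% and 32.6%, against 30.2% and 15.1% of members. The values describe 10 libraries that share their totals, of which member 1 itself takes up to 5.13%, so they are not evidence of common control. The 3 members most like member 1 were member 5 (r = 0.97), member 7 (r = 0.97) and member 37 (r = 0.96).

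Replicate 5 at 3.33 µg/g and replicate 3 at 33.3 µg/g were the 2 lowest exposed libraries in 23 of the 26 members that varied with member 1, as in member 1 itself. This order held in 29.1% of all members and 11.98% of liver features, and it follows in part from choosing on r. In replicate 5 at 3.33 µg/g their median ratio to solvent was 1.84, and 1 of the 26 was at least 3 times the solvent mean there. In replicate 3 at 33.3 µg/g the median was 2.70, and 7 of 26 reached 3 times. Over the other 8 exposed libraries the median of their mean ratios was 4.15. All 26 stayed at or above 3 times solvent without those 2 libraries. In the 23 this was set in advance, since leaving out the 2 lowest libraries can only raise the mean.

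The choice on r also sets where the opposite members are high, so their values are given only as a description. The 13 members that varied against member 1 were members 31, 34, 36, 44, 47, 50, 60, 63, 67, 70, 74, 80 and 84. In replicate 5 at 3.33 µg/g their median ratio to solvent was 6.44, and in replicate 3 at 33.3 µg/g it was 7.69, and all 13 reached 3 times in both. Over the other 8 exposed libraries the median was 2.39. Without those 2 libraries 11 of the 13 fell under a ratio of 3, against 15 of all 86 members. In solvent livers, too, replicate 4 was the highest of the 4 libraries in all 13, and solvent replicate 2 was above all 4 in 12 of them. Solvent replicate 4 was the highest of the 4 in 53.5% of members and in 62.0% of liver features, so that position is common in these libraries.

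**Figure D3:**
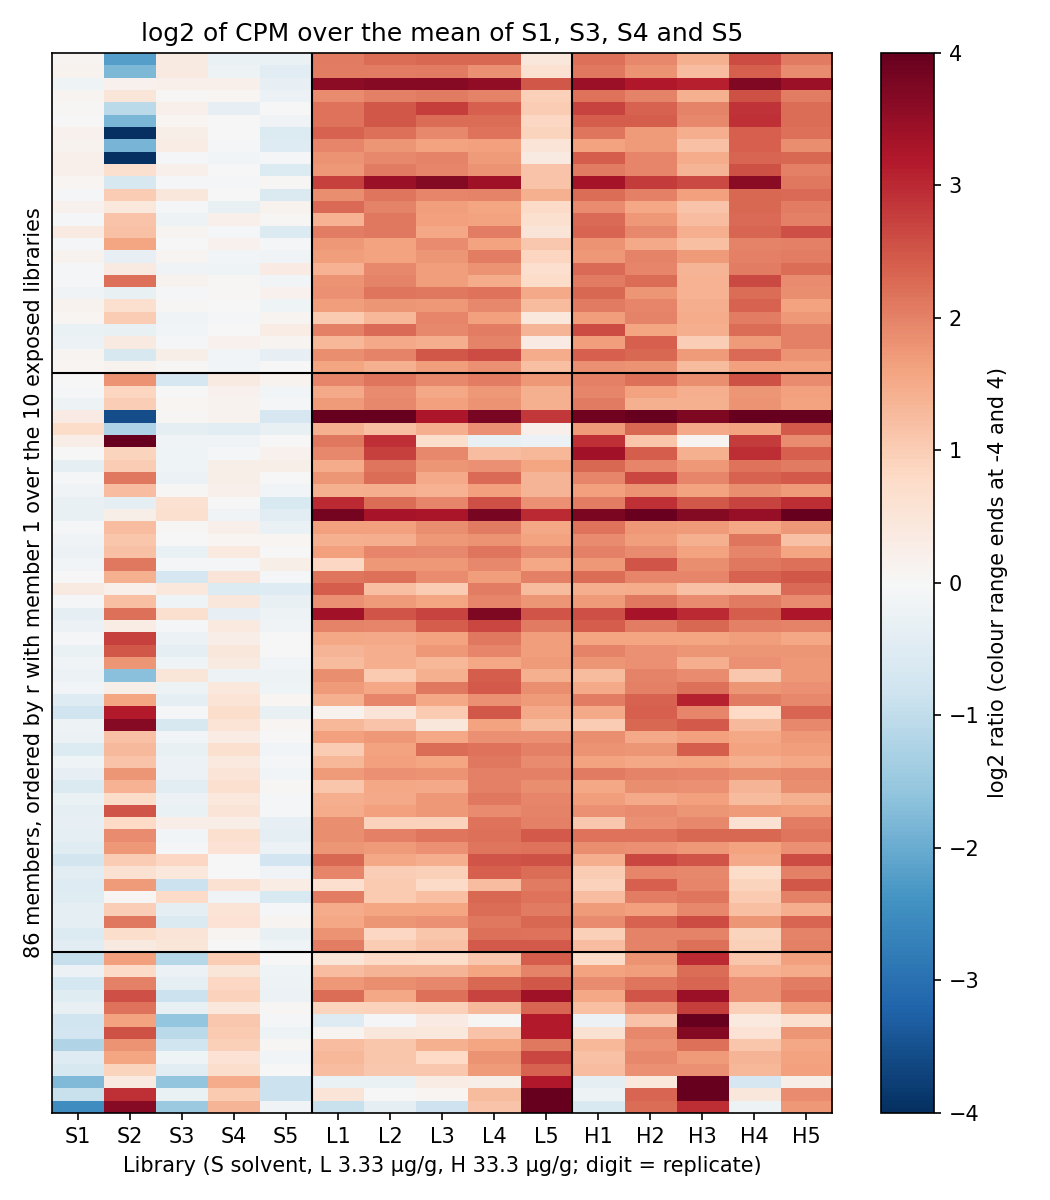
Colour gives log2 of CPM over the mean of solvent replicates 1, 3, 4 and 5 for the 86 members (rows, ordered by r with member 1 over the 10 exposed libraries) in the 15 libraries (columns). Horizontal lines bound the 26 members with r of at least 0.7 (top) and the 13 with r of at most -0.7 (bottom), of which 12 have their 2 highest exposed values in replicate 5 at 3.33 µg/g and replicate 3 at 33.3 µg/g. This order held in 14.0% of all members and 26.4% of liver features, and in the 13 it follows in part from choosing on r.

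Members 60, 67, 50 and 36 show the extreme of this pattern; they were picked with their values in view. Member 60 had 253 CPM in replicate 5 at 3.33 µg/g and 506 CPM in replicate 3 at 33.3 µg/g, and 17.4 to 36.9 CPM in the other 8 exposed libraries. Solvent replicates 1, 3, 4 and 5 had 8.13, 9.29, 77.4 and 15.1 CPM. The other 8 exposed libraries were thus above solvent replicates 1, 3 and 5 and below replicate 4. Its ratio to solvent was 3.56 with all libraries, 0.999 without those 2, 9.04 without solvent replicate 4 and 2.53 without all 3.

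Member 67 behaved alike, with 218 and 415 CPM in those 2 libraries, and a ratio of 3.60 that was 1.23 without them, 5.74 without solvent replicate 4 and 1.96 without all 3. Member 50 had 621 and 201 CPM there, and also 122 CPM in replicate 2 and 87.5 CPM in replicate 5 at 33.3 µg/g. Its ratio was 4.51, 1.70 without the 2 libraries, 9.30 without solvent replicate 4 and 3.50 without all 3. In solvent replicate 2 it reached 327 CPM. Member 36 had 552 and 600 CPM there, 21.5 to 125 CPM in the other exposed libraries and 191 CPM in solvent replicate 2. Its ratio was 6.31, 2.11 without them, 9.86 without solvent replicate 4 and 3.30 without all 3. Among the other members under 3 without the 2 exposed libraries, the ratio became 2.39 for member 63, 2.03 for member 70 and 2.16 for member 74. For members 39, 44, 47, 64, 71, 80, 84 and 86 it was between 2.67 and 2.96. Members 36, 50, 60, 67, 70 and 74 are thus 6 of the 10 members whose exposed libraries overlapped the 4 solvent ones in CPM. The others were members 2, 21, 54 and 86. What these libraries share besides exposure was not tested.

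A further block of 6 members followed another division of the exposed livers, noticed after the values had been seen. In members 23, 57, 58, 62, 64 and 71 the 6 highest exposed libraries were replicates 1, 4 and 5 at 3.33 µg/g and replicates 2, 3 and 5 at 33.3 µg/g. In these libraries the 6 members were 3.51 to 6.32 times the solvent mean, and in the other 4 exposed libraries 1.52 to 2.89 times. Over the 10 exposed libraries their 15 pairwise correlations were 0.93 to 0.99. The members were picked by their order in these libraries, and member 36, which had the same 6 on top, was left out. It had 35.7 to 600 CPM in them, against a solvent mean of 24.9 CPM. The ratios and correlations of the 6 thus follow in part from the choice. Solvent replicate 3 was the highest of the 4 solvent libraries in all 6. The share of liver features with replicate 3 highest was not counted, so this is not shown to be particular to the 6. Member 57, for example, had 21.6, 41.6, 28.9 and 26.0 CPM in solvent replicates 1, 3, 4 and 5. It had 121, 60.2, 67.2, 163 and 161 CPM at 3.33 µg/g, and 70.2, 118, 135, 57.2 and 119 CPM at 33.3 µg/g. With member 36, 8.14% of members had these 6 libraries on top, against 4.62% of liver features. The files do not say whether such features share sequence, and reads shared between them could link their counts.

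Member 54, also chosen after seeing its values, followed neither pattern. It was at 27.4 to 36.2 CPM in the 4 solvent libraries. It reached 130 and 230 CPM in replicates 1 and 2 at 3.33 µg/g but had 49.8, 24.8 and 26.1 CPM in replicates 3, 4 and 5. At 33.3 µg/g it had 232, 66.2, 32.8, 209 and 112 CPM in replicates 1 to 5. Its highest value, 565 CPM, was in solvent replicate 2.

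Spread within a dose was wider for the members than for liver features in general. The median coefficient of variation was 28.7% at 3.33 µg/g and 25.1% at 33.3 µg/g, against 16.6% and 12.1% for the 5609 liver features. In the 4 solvent libraries it was 24.2%, against 13.4%. In 8 members, namely 21, 36, 50, 54, 60, 67, 70 and 74, it exceeded 60% at 1 or both doses. The rule takes means, which single high libraries can raise. When each member's highest exposed library was left out, 23 of 86 fell under a ratio of 3, and 3 fell under 2.5.

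The comparison of doses is the contrast that the rule did not use, and it asked whether members were higher at 33.3 than at 3.33 µg/g. No member passed the test between doses: 0 of 86 had an adjusted p under 0.05 (edgeR quasi-likelihood test over 12717 features), against 0.00786%, or 1 feature, of all those tested. The smallest adjusted p among members was 0.733. At an unadjusted p under 0.05 there were 6 members, or 6.98%, against 6.64% of all features. Leaving out replicate 2 or replicate 5 at 33.3 µg/g gave 1 member (1.16%), against 4.15% and 4.86% of all features. Leaving out replicate 5 at 3.33 µg/g gave 10 members (11.6%), against 15.7% of all features. These were the lowest and highest counts with 1 library left out. Without both replicate 5 at 3.33 µg/g and replicate 3 at 33.3 µg/g there were 13 members (15.1%), against 12.4%. DESeq2 called 0 members and limma-voom 0, but DESeq2 gave no adjusted p for members 60 and 67, which stay in its total of 86. At an unadjusted p under 0.05 DESeq2 had 8 members, or 9.30%, against 8.43% of all features. Limma-voom had 5, or 5.81%, against 6.04%.

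Regardless of sign, the log2 difference between doses had a median of 0.17 over members and 0.10 over the 5607 liver features tested. The log2 difference (33.3 over 3.33 µg/g) had a median of 0.11 over members, and was above 0 in 58 of 86. Over those liver features the median was -0.04, with 38.3% above 0. With 1 library left out the members' median ran from 0.0383, without replicate 4 at 33.3 µg/g, to 0.17, without replicate 1 at 3.33 µg/g. It was 0.0563 without replicate 5 at 3.33 µg/g. For 63 members the 95% interval lay within 2-fold in either direction, which was 73.3%, against 94.2% of liver features. The intervals of the other 23 members reached beyond 2-fold, so a difference of that size is not bounded for them at 5 libraries per dose.

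**Figure D4:**
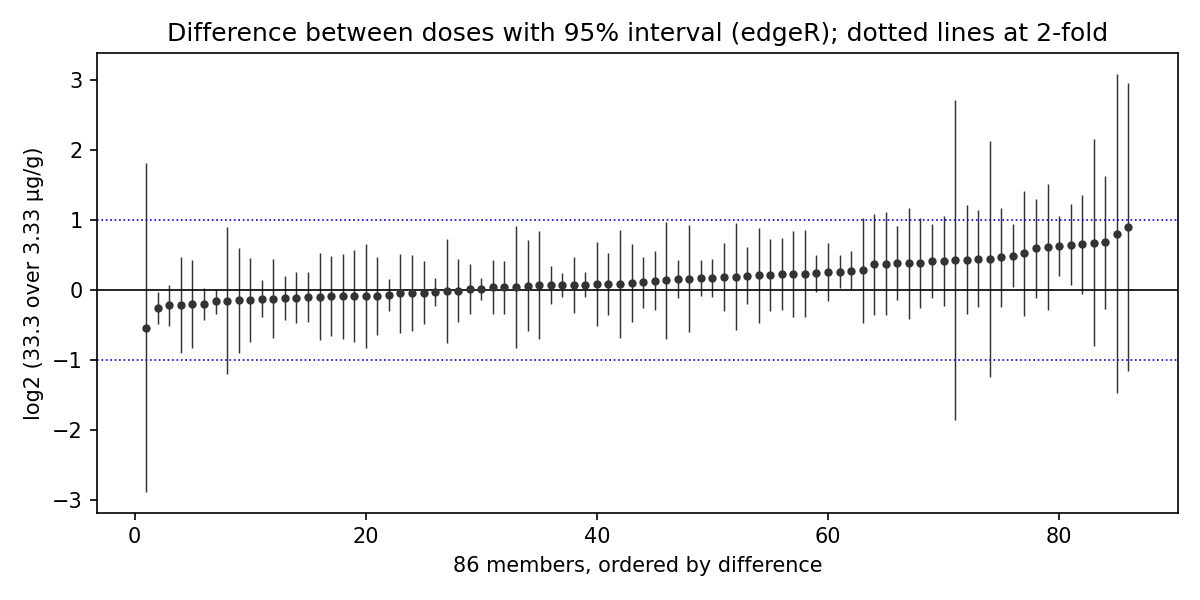
Log2 difference between 33.3 and 3.33 µg/g (y axis, edgeR) for the 86 members in order of size (x axis), with 95% intervals; dotted lines mark 2-fold. Most points lie near 0, and the widest intervals belong to members 50, 60, 67 and 36.

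For the members with the highest levels and ratios the interval of the difference included 0. The log2 difference was 0.05 for s2f_0001908006, with a standard error of 0.394 and a 95% interval of -0.82 to 0.92 (edgeR adjusted p = 0.992). It was 0.14 for s2f_0004545001, with a standard error of 0.380 and an interval of -0.70 to 0.98 (edgeR adjusted p = 0.970). Member 7 had a difference of -0.09 and an interval of -0.70 to 0.52, and member 6 had 0.38 and an interval of -0.15 to 0.91. Member 2 had 0.60 and an interval of -0.10 to 1.30 (edgeR adjusted p = 0.765), with means of 1304 ± 459 CPM at the lower and 2038 ± 613 CPM at the higher dose (SD, n = 5 each).

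The differences of members 67 and 60, the highest, and of member 50, the lowest, came with standard errors among the widest. These differences were 0.90 for member 67 (standard error 0.925), 0.81 for member 60 (1.03) and -0.53 for member 50 (1.06). The next lowest value was that of member 15, at -0.25 (standard error 0.105; edgeR adjusted p = 0.747), with means of 305 ± 58.8 CPM for the lower and 257 ± 29.1 CPM for the higher dose (SD, n = 5 each). The smallest unadjusted p, 0.00838 (edgeR), was that of member 33, at a difference of 0.63 with an interval of 0.20 to 1.06. Its values were 103, 150, 114, 138 and 125 CPM at the lower dose and 161, 200, 328, 164 and 147 CPM at the higher dose, so the groups overlapped (edgeR adjusted p = 0.733).

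Set against solvent separately, the members had a median ratio of 3.37 at 3.33 µg/g and 3.81 at 33.3 µg/g. The rule set the mean ratio over both doses at 3 or more. The size and closeness of these medians thus follow in part from the choice. Of the 86 members, 66 reached a ratio of 3 at the lower dose, 82 at the higher and 62 at both. The lowest ratio was 2.32 at the lower dose (member 86) and 2.87 at the higher (member 15). Both ratios use the same solvent libraries, so they are not independent. Applied to the libraries at 3.33 µg/g alone, the rule would take 73 of the 5609 liver features. Applied to those at 33.3 µg/g alone, it would take 123. Of these, 66 and 82 are among the 86 members. Whether these numbers differ beyond the scatter of the libraries was not tested.

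Solvent replicate 2, which the rule left out, did not place the members on one side. It was above the range of the other 4 solvent libraries in 62 members (72.1%), within it in 9 and below it in 15 (17.4%). Among all liver features it was above in 72.7% and below in 16.4%, so the members' positions were near the background. In this library 32.6% of members were at 3 times the solvent mean or more, against 8.83% of liver features. The rule favours features whose mean over the other 4 libraries is low, so that share is not independent of it. In 19 members (22.1%) it was at or above the exposed mean, against 59.3% of liver features, and in 6 (6.98%) above every exposed library, against 30.9%. The rule also selects for a high exposed mean. No test is possible on 1 library.

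Several of the most abundant members were low in solvent replicate 2. Member 4 had 3.02 CPM there, against 194 to 334 CPM in the other solvent libraries. Member 13 had 1.38 CPM, against 75.9 to 93.7 CPM. These were 0.0106 and 0.0168 times the solvent mean, and s2f_0004545001 and s2f_0001908006 were at 0.0857 and 0.217 times. In all, 8 members were at 0.314 times the solvent mean or less there, namely members 1, 3, 4, 5, 8, 13, 30 and 52. The share of liver features at that level was not counted, so these values are not shown to be particular to the members. Of these 8, 6 had r of at least 0.7 with member 1, as did 30.2% of all members. At the other end, member 54 was at 18.6 times the solvent mean, members 50 and 86 at 12.5 times and member 21 at 8.92 times. Members that varied with member 1 had a median of 1.11 times in this library, and those that varied against it 3.48 times. The median was 2.02 times over all members and 1.60 times over the liver features.

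**Figure D5:**
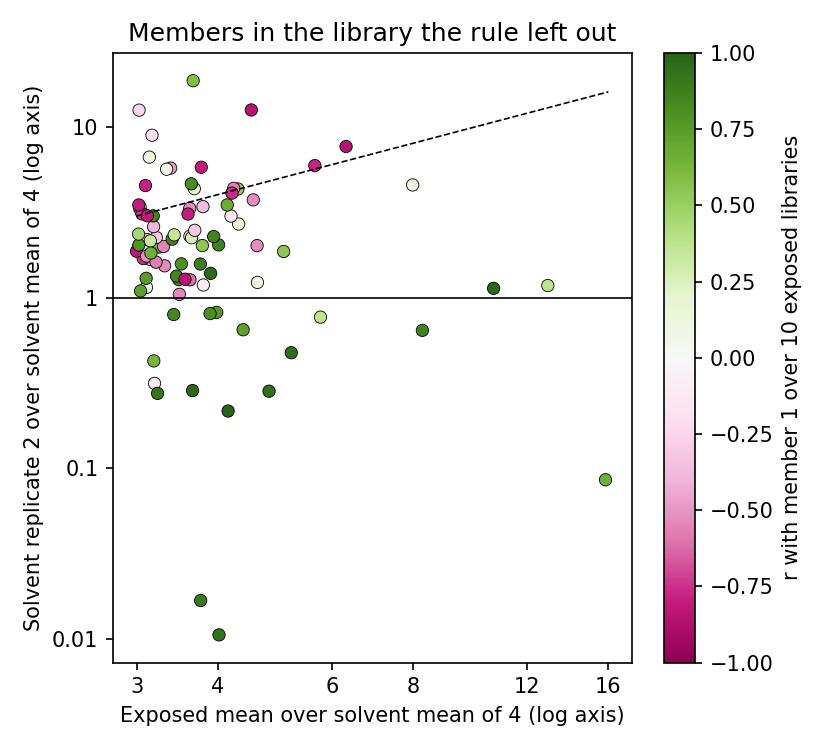
Each point is a member: the exposed mean over the mean of solvent replicates 1, 3, 4 and 5 (x axis, log) against solvent replicate 2 over the same mean (y axis, log), coloured by r with member 1 over the exposed libraries. The line at 1 marks equality in CPM with the mean of the other solvent livers, where the median liver feature is at 1.60. The dashed line marks equality with the exposed mean, which 19 members reach or pass.

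With solvent replicate 2 counted in the solvent mean, the rule would take 46 features, of which 36 are among the 86. Members 3, 6 and 7 were among the 49 that were lower in CPM in all 5 solvent livers than in any exposed liver.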

How the data were processed

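The deposited values are whole-number counts for each feature and library, read as unnormalised since library totals differ. How reads were aligned, counted and assigned to similar features is not given in the sources used here. Columns were matched to samples by dose class in the file header (control, medium, high) and the final digit; no label states in words that medium is 3.33 µg/g. In all, 0 columns lacked a sample. Counts of libraries in a group differed by a chi-square of at least 16.4 per degree of freedom, so none was treated as a duplicate.

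CPM used column totals. The members, and the rules for naming them, were chosen with earlier results of these data known. At most 2 members are printed by ID, those with the highest exposed mean and the highest ratio. The others named are the next by level and ratio, those beside the thresholds, those with the largest differences between doses, and some chosen after seeing values, as stated.

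The doses were compared by edgeR 4.0.16 (R 4.3.3; quasi-likelihood F-test, two-sided, TMM scaling, default filter with minimum count 10 and minimum total 15, Benjamini-Hochberg adjustment over 12717 features, threshold 0.05) in the 10 exposed libraries, so that solvent replicate 2 did not set the spread. The standard error is the absolute log2 difference over the square root of F. The test was checked on simulated data. Other fits used DESeq2 1.42.0 and limma 3.58.1. Every member had at least 16 counts in each library, and 81 had at least 100; CPM of a low count carries counting error besides.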

Additional observations from a re-analysis of the deposited data

Results flagged for a closer look

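For the shares and for the members named by rule, each group of 5 values was searched for a library whose gap to the nearest other exceeded 0.71 of the group's range (Dixon's 95% critical value for 5). Of 48 groups, 14 held such a library, where chance gives about 1 in 20 for independent, normally distributed values. These values share libraries, and the members' share includes member 1. Members 50, 60 and 67 were named for their large differences between doses, which single high libraries can bring about. The count thus follows in part from the choice and cannot be judged against that rate.

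In solvent replicate 2 the other 85 members held 0.852% of counts, against 0.381 to 0.487% in the other solvent livers. The same library stood apart for member 76 at 62.9 CPM, member 82 at 47.1 CPM and member 50 at 327 CPM.

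Replicate 5 at 3.33 µg/g held 2.59% of counts in members, where the other 4 libraries of that dose held 5.34 to 6.12%. It was low for s2f_0001908006 at 11650 CPM and member 7 at 250 CPM. It was high for member 50 at 621 CPM, member 60 at 253 CPM and member 67 at 218 CPM.

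At 33.3 µg/g, replicate 3 was high for member 60 at 506 CPM, member 67 at 415 CPM and member 81 at 107 CPM, and replicate 1 for member 82 at 90.5 CPM.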

How the results depend on the processing

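The number of members was 86, and 76 to 146 when 1 library was left out, the highest without solvent replicate 4 (71 shared with the 86). It was 15 with TMM and 15 with median-of-ratios scaling (11 shared in each), 46 with solvent replicate 2 in the solvent mean, 975 at a fold of 2, 25 at a fold of 4, 175 at a solvent minimum of 10 CPM and 34 at 40 CPM. Without replicate 5 at 3.33 µg/g and replicate 3 at 33.3 µg/g together, a setting added after seeing the data, it was 84, of which 71 were shared. With the 10 most abundant features, member 1 among them, out of both the members and the total, the share was 0.540% in solvent and 2.02% in exposed libraries. With them out of the total alone, the solvent value was 1.61%, in place of 1.28%, but it still counts member 1 and is not a share. Members called between doses were 0 under all alternatives run, including an adjusted p of 0.1. Over all features, at an adjusted p under 0.05, the count was 0 or 1 except for DESeq2, with 38, where the cause was not tested.

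The replicate block gave 0 calls among members; same-numbered libraries had correlations of -0.42 to 0.44, so the numbers were not taken as pairs, and of the libraries at 3.33 µg/g only replicate 1 correlated best with its own number. Of differences between doses that changed sign, none passed a test. With the replicate block they were 0.0295 for member 4, 0.0222 for member 81, 0.46 for member 50 and -0.0116 for member 60. With limma-voom they were 0.0359, 0.0241 and 0.46 for members 4, 81 and 50, and with library size alone 0.0224 and 0.00118 for members 4 and 81. Without both libraries named above they were -0.0436 for member 1, -0.0385 for member 82, 1.19 for member 50 and -0.11 for member 60, whose ratio to solvent was 0.999. Leaving out 1 library gave -0.19 to 0.20 for member 1, -0.0695 to 0.51 for member 3, -0.22 to 0.14 for member 4, -0.28 to 0.00108 for member 7, -0.0348 to 0.21 for member 47, -1.02 to 1.67 for member 50, -1.27 to 1.97 for member 60, -0.64 to 2.07 for member 67, -0.14 to 0.13 for member 81 and -0.12 to 0.0792 for member 82.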
